A study of Mus musculus with 38 samples.

Results

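Imprinted genes are expressed from only the maternal or only the paternal chromosome, and the 47 examined here are known imprinted genes of the mouse that were matched by Ensembl identifier to the 55298 genes of the count table. They fall into 20 imprinted clusters. By their textbook parental expression 25 are paternally expressed, 16 are maternally expressed and 6 have a parental origin that depends on the transcript isoform. RNA was read in 32 bulk libraries of 5 experiments and in single nuclei of 4 animals, all of the mouse.

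In the first experiment neural progenitor cells (NPCs) from the embryonic forebrain of Rosa26-Cas9 knock-in mice received lentiviral guide RNAs against Trim28 (6 cultures, 2 for each of the guides g3, g4 and g13) or against lacZ (2 control cultures) and were sorted after 10 days. In the next experiments the same guides were delivered by AAV into the striatum of adult Cas9-GFP mice and of Stop-Cas9-GFP mice, in which Cas9 needs Cre. Transduced nuclei were sorted after 2 months by a nuclear reporter, which in the Stop-Cas9-GFP line needs Cre from a second AAV under the Synapsin promoter. Each line had 1 lacZ control and 4 Trim28-KO animals. Of these 4, 1 each received g3, g4, g13, and g3, g4 and g13 together. In the flox experiment AAV with Synapsin-driven Cre was injected into adult Trim28-flox mice, and sorted nuclei of 4 animals labelled Trim28-KO and 4 labelled control were sequenced. For this experiment the study names Trim28-flox (+/-) and (+/+) animals, the knockout being (+/+), and AAV vectors for Cre or nuclear GFP. In the Emx1 experiment the cortex of 3 Emx1-Cre (+/-); Trim28-fl (+/+) animals, the Trim28-KO, was compared at 3 months with that of 3 Emx1-Cre (+/-); Trim28-fl (+/-) animals, so that by their labels the controls also carried Emx1-Cre and had 1 excised allele. A legend of the study calls the control litter mates Cre-negative instead, which was not settled. Emx1-Cre acts in the progenitors of cortical excitatory neurons and glia, whereas cortical interneurons arise elsewhere. Nuclei of 2 Trim28-KO and 2 control animals that carry the same numbers as animals of the bulk cortex were read one by one.

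At an imprinted cluster, DNA methylation laid down in only 1 of the parental germ lines marks a control region, and this mark decides which allele is expressed in the offspring. TRIM28, an epigenetic co-repressor, is brought to the methylated control regions by the zinc finger proteins ZFP57 and ZFP445 and helps to keep the mark through the reprogramming of the early embryo. In the brain, imprinted genes are known for roles in growth, feeding and neuronal development. The libraries do not separate the parental alleles, so each value is the sum of both.

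Read totals on genes ranged from 8790346 to 25345083 per bulk library, and the nuclei kept were 13671 of 14296 barcodes. Values are given as CPM, the reads of a gene relative to all reads on genes of the library after scaling by its TMM factor. To be called in a bulk experiment, a gene needed an adjusted p (Benjamini-Hochberg, over all genes tested by edgeR's quasi-likelihood test) under 0.05 together with a log2 fold change beyond 0.5 in either direction. In the NPCs Trim28 was at 36.8 to 73.5 CPM in the Trim28-KO and at 157 to 204 CPM in the control cultures (log2 fold change -1.82, adjusted p = 0.031, edgeR). In the Cas9-GFP nuclei it was at 93.7 to 105 CPM against 143 CPM in the control, and in the Stop-Cas9-GFP nuclei at 88.4 to 127 CPM against 105 CPM, where the control lay within the range of the Trim28-KO animals. For both lines the study gauged editing by amplicon sequencing of the target sites and by staining, and reports loss of the Trim28 protein in transduced neurons. The RNA level of Trim28 is not a check of editing in these lines. In the Emx1 cortex it was at 6.07 to 8.86 CPM against 18.95 to 21.4 CPM (log2 fold change -1.39, adjusted p = 0.000378, edgeR). In the flox experiment Trim28 went against the labels. The 4 libraries labelled Trim28-KO had 130 to 146 CPM and the 4 labelled control had 25.6 to 31.6 CPM (log2 fold change 2.26, adjusted p = 2.74e-06 by edgeR, and an exact two-sided permutation test over the libraries gave p = 0.0286, the smallest it can give with 4 against 4). The study itself reports, from RNA of the sorted nuclei, that the Trim28 transcript was lost in the knockout, which is the reverse of the groups as labelled here. The groups of this experiment are therefore named by their labels throughout, and each direction given for it is that of the labels, which may be exchanged.

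Mkrn3, a paternally expressed gene without introns that encodes a RING finger protein known for restraining the onset of puberty, was the only one of the 47 genes called in a bulk experiment. It lies at chr7:62417593-62420139 on the minus strand of GRCm38, in the Prader-Willi/Angelman cluster, and no other annotated gene shares its exonic bases. In the Emx1 cortex it was at 8.06, 7.07 and 9.81 CPM in the Trim28-KO animals and at 0.507, 0.489 and 0.666 CPM in the controls. Every Trim28-KO animal lay above every control, on 124 to 142 reads against 9 to 15 reads. The log2 fold change was 3.88 ± 0.22 (SE; 3 against 3 animals; adjusted p = 1.72e-06, edgeR), which placed Mkrn3 6th by p among 16271 genes tested. In the flox nuclei Mkrn3 was at 0.111, 0.278, 0.192 and 0.0475 CPM in the libraries labelled Trim28-KO and at 4.46, 4.19, 5.88 and 5.95 CPM in those labelled control. The lower values rest on 1 to 5 reads per library and the higher ones on 73 to 129 reads. The log2 fold change was -4.99 ± 0.40 (SE; 4 against 4 animals; adjusted p = 0.000358, edgeR), 4th by p among 17102 genes. As labelled, the flox and Emx1 directions were opposite. In both experiments the libraries with the lower Trim28 were those with the higher Mkrn3.

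In NPCs Mkrn3 was expressed in every culture, at 3.95 to 5.76 CPM with a median of 5.02 CPM in the 6 Trim28-KO cultures and at 5.53 and 5.57 CPM in the controls. The control values lay within the range of the Trim28-KO cultures (log2 fold change -0.15 ± 0.22, adjusted p = 1.0, edgeR). In the Cas9-GFP nuclei the 4 Trim28-KO animals had 0.730, 2.85, 1.37 and 1.06 CPM, from 8 to 33 reads, and Mkrn3 had 0 reads in the single control library, so that no fold change is given. In the Stop-Cas9-GFP nuclei the Trim28-KO animals had 1.27, 1.18, 1.65 and 3.03 CPM and the control had 0.902 CPM. All 8 Trim28-KO animals of both lines lay above the control of their line, but the fit over both lines was not called (log2 fold change 2.11 ± 1.07, adjusted p = 0.861, edgeR), and the value depends on the control library of each line (0.979 without the Cas9-GFP control and 7.06 without the Stop-Cas9-GFP control). A model of both experiments together tested the difference between effects. The log2 fold change of Mkrn3 in the Emx1 cortex exceeded that of the flox nuclei as labelled by 8.82 ± 0.47 (SE; adjusted p = 8.18e-09, edgeR) and that of the NPCs by 4.00 ± 0.30 (SE; adjusted p = 4.6e-05, edgeR). The first value rests on the flox labels. With the sign of the flox effect turned the effects would differ by -1.11, a description without a test. Mkrn3 was the 1 member called among 37 tested in the first of these (0.315% of all genes) and among 38 tested in the second (0.112% of all genes). The members next by p were Mirg and Peg13 against the flox nuclei, with differences of 0.50 ± 0.16 and -0.50 ± 0.19 (adjusted p = 0.383 and 0.533, edgeR), or 0.43 and -0.024 with the flox sign turned. Against the NPCs they were Ddc and Kcnk9, with differences of -0.95 ± 0.49 and 2.29 ± 0.91 (adjusted p = 1.0 for both, edgeR). Kcnk9 had 1 read in all NPC cultures, and its difference ranged from 0.25, without the control that holds that read, to 3.09 with 1 library left out. Unadjusted p under 0.05 was reached by 4 members against 7.17% of all genes in the first and by 1 against 4.57% in the second. Cells and RNA differ between these experiments too, since cortex tissue was set beside sorted nuclei or cultured cells. In the single nuclei Mkrn3 had 0 UMIs in 13671 nuclei, which allows a share of up to 0.0219% of nuclei with a UMI (counting error only). Trim28-KO animals 60 and 73 had 32908711 and 33155331 UMIs there, and 8.06 and 7.07 CPM of Mkrn3 in the bulk cortex. Mcts2, at 5.73 to 6.47 CPM in the bulk cortex, had 0 UMIs too. The 0 is therefore no measure of how many nuclei express Mkrn3, and whether the nuclei counts capture it was not tested.

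**Figure D1:**
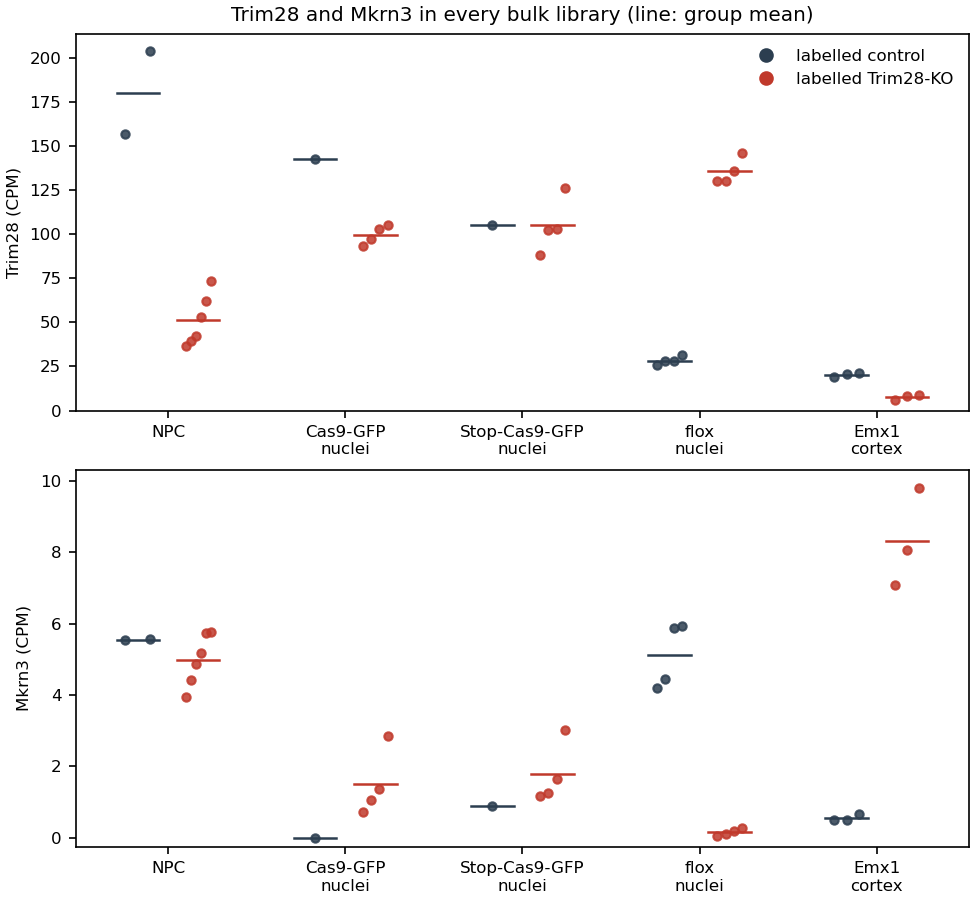
Trim28 (top) and Mkrn3 (bottom) in CPM in each of the 32 bulk libraries, with the labelled control in dark blue, the labelled Trim28-KO in red and a line at each group mean. Mkrn3 sat at 7.07 to 9.81 CPM in the Trim28-KO cortex and at 4.19 to 5.95 CPM in the flox libraries labelled control, which are the flox libraries with 25.6 to 31.6 CPM of Trim28.

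The neighbours of Mkrn3 in the Prader-Willi/Angelman cluster were not called in any of the 5 experiments. Ndn, which encodes the neuronal growth regulator necdin, was at 104 to 117.5 CPM in the Trim28-KO cortex and at 97.2 to 107 CPM in its controls. Snrpn, which encodes a spliceosome protein of neurons, was at 485, 453 and 409 CPM against 457, 457 and 419 CPM. In flox nuclei Snrpn was at 54.2 to 65.1 CPM in the libraries labelled Trim28-KO and at 49.6 to 58.1 CPM in those labelled control. The groups overlapped in each case. Snrpn shares 27.3% of its exonic bases with other genes on its strand, so part of its reads was not counted. Across the NPCs, the flox nuclei and the Emx1 cortex the log2 fold changes of the neighbours that were tested (Ndn, Snrpn, Magel2, Peg12 and the maternally expressed ubiquitin ligase gene Ube3a) lay between -0.16 and 0.18. In the TEtranscripts counts of the flox nuclei Ube3a was at 0.31 ± 0.17 (adjusted p = 0.95, edgeR).

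The stretches before the start sites of Mkrn3, Nap1l5 and Plagl1, 3 of the 4 members called in bulk RNA or in nuclei, are shown, since control regions of imprinted clusters often lie at such promoters. The sequences are from RefSeq on GRCm38.p6 and run 5′ to 3′ on the strand of the gene. Capitals mark the hexamer TGCCGC, or GCGGCA where it stands on the opposite strand, the motif that ZFP57 binds when it is methylated. The stretch of Mkrn3 (chr7:62420154-62420403, minus strand) holds none, that of Nap1l5 (chr6:58907127-58907376, minus strand) holds 1, and that of Plagl1 (chr10:13090582-13090787, plus strand) holds 1. Snrpn, the other called member, has 4 annotated windows and is not printed. The stretch of Nap1l5 overlaps the first exon of a non-coding transcript of Herc3, on the other strand.
Mkrn3: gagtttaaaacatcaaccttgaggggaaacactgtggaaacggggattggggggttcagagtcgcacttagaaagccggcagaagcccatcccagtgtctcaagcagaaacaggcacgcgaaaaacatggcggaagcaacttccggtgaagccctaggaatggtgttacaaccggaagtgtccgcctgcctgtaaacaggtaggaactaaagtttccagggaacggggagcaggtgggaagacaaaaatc
Nap1l5: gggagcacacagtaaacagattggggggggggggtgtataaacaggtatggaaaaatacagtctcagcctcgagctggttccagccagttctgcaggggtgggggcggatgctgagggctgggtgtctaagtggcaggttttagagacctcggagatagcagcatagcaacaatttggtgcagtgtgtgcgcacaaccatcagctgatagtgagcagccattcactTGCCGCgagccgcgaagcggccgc
Plagl1: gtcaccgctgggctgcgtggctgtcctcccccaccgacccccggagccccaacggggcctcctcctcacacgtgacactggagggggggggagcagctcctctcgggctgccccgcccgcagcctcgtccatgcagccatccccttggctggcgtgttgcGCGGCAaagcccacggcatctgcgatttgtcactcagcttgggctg

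Over windows from 250 bases before to 50 bases after the annotated starts, 37 members had 54 windows, and 14 of these held the hexamer on either strand (25.9%), beside 11.6% of 32851 windows of all genes. On the strand of the gene alone it was 3 of 54 (5.56%) against 5.65% of all windows. The windows of the members had a median GC content of 57.5%, those of all genes 52.7%, and windows of 1 gene can overlap. The match is of letters only and holds no information on methylation or binding.

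Beyond Mkrn3, no member was called in bulk RNA by the main edgeR fits of the unique counts. Genes of imprinted domains outside the members were tested as a separate list. Of that list Klf14, Htr2a and Phactr2 were called in the Emx1 cortex, as given below. In the NPCs 35 members passed the filter on low counts and 0 were called, where 0.194% of all 16469 genes tested were called. A single member had an unadjusted p under 0.05 (4.57% of all genes), and DESeq2 also called 0. With the culture series as a block 0.826% of all genes and 0 members were called, and 4 members had an unadjusted p under 0.05 (8.48% of all genes). These were Copg2 (-0.44 ± 0.12, adjusted p = 0.187), H19 (-1.23 ± 0.36, adjusted p = 0.243), Mest (-0.71 ± 0.22, adjusted p = 0.298) and Trappc9 (-0.40 ± 0.15, adjusted p = 0.436). All 6 Trim28-KO cultures lay below the control of their own series for each of them, and above it for Airn. The 4 were picked by p from the fit with this pairing, so their shared direction is no separate support. How many of all genes do the same was not counted. Copg2 shares 17.8% of its exonic bases with Mest on the other strand, and without the block it was at -0.13 in the TEtranscripts counts and at -0.43 in the unique counts. Of the flox members 1 of 35 tested was called, where 0.0409% of 17102 genes were called. In the Emx1 cortex 1 of 35 was called, where 1.33% of 16271 genes were called. In each of these the 1 member was Mkrn3, and 2 and 6 members had an unadjusted p under 0.05 beside 4.74% and 9.15% of all genes. The 34 other tested members of the Emx1 cortex lay between -0.26 and 0.49 on the log2 scale. For the flox nuclei 33 of the 34 others lay within 0.5, the exception being Kcnk9 at 0.54, with 36.1 to 127 CPM in the libraries labelled Trim28-KO and 26.4 to 67.1 CPM in those labelled control. In the NPCs 27 of 34 others lay within 0.5. Those beyond were Mest, Zim1, H19, Cdkn1c, Rasgrf1, Ddc and Meg3, between -1.15 for H19 and 1.32 for Rasgrf1, with none called.

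In cortex tissue the median log2 fold change was 0.0054 for 18 paternally expressed, 0.034 for 11 maternally expressed and 0.10 for 6 isoform-dependent genes, beside 0.0071 for all genes tested. All 6 isoform-dependent genes (Blcap, Gnas, H13, Grb10, Ddc and Inpp5f) had positive values, of at most 0.13 and none called. Among flox nuclei as labelled the medians were 0.0071 for 20 paternally and -0.0010 for 10 maternally expressed genes, beside 0.0079 for all genes. In the NPCs they were -0.074 for 19 paternally and 0.0006 for 10 maternally expressed genes, beside 0.0095 for all genes. Of the cortex values, 9 of the 18 paternally expressed and 7 of the 11 maternally expressed genes had positive values.

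**Figure D2:**
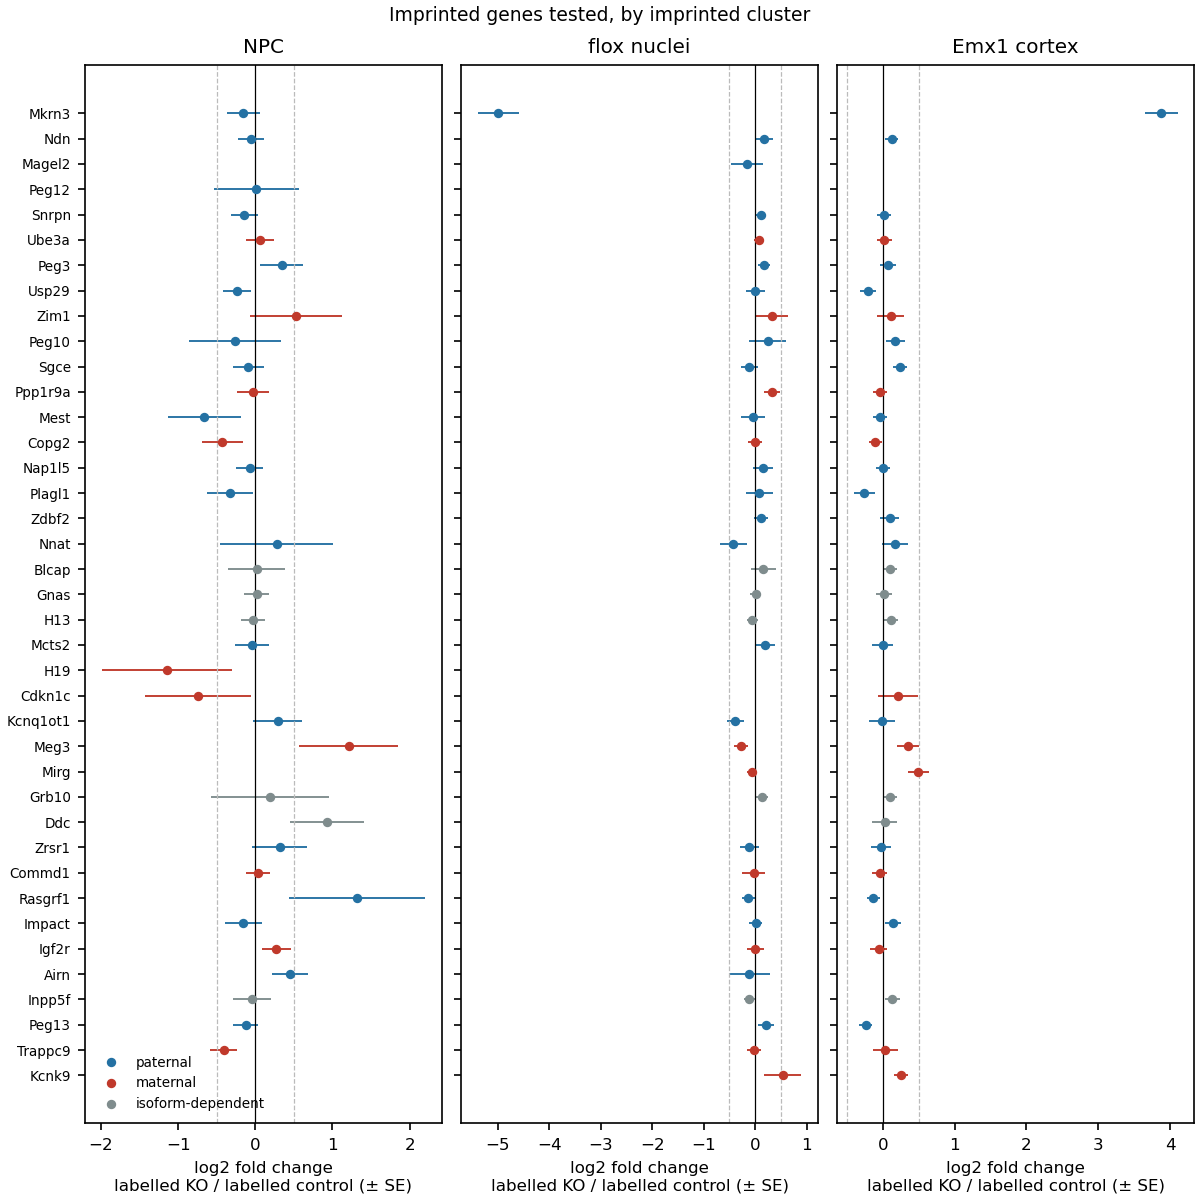
Log2 fold change of labelled Trim28-KO over labelled control with its standard error for each imprinted gene tested in NPCs, flox nuclei and Emx1 cortex, in the order of the clusters, with dashed lines at 0.5 in both directions. Mkrn3 lies at 3.88 in the Emx1 cortex and at -4.99 in the flox nuclei, and each panel has its own scale on the x axis.

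The values of the groups did not overlap for 1 member in the NPCs, where this held for 6.85% of all genes tested, for 1 in the flox nuclei (3.37% of all genes) and for 7 in the Emx1 cortex (13.9% of all genes). In the NPCs this was Airn, the paternally expressed long RNA that silences Igf2r. It had 3.95, 4.84, 5.86, 4.60, 5.11 and 4.61 CPM in the Trim28-KO cultures and 3.11 and 3.93 CPM in the controls (log2 fold change 0.45 ± 0.23, adjusted p = 1.0, edgeR). The lowest Trim28-KO culture and the higher control differed by less than the spread within either group. The 7 of the Emx1 cortex were not all in 1 direction, since H13, Blcap, Sgce, Mkrn3, Mirg and Kcnk9 were above and Peg13 was below the controls. Sgce, the paternally expressed gene of epsilon-sarcoglycan, was at 21.1 to 21.3 CPM against 17.8 to 18.2 CPM. Peg13, a paternally expressed long RNA within Trappc9, was at 232, 218 and 203 CPM against 273, 258 and 239 CPM (log2 fold change -0.24 ± 0.092, adjusted p = 0.395, edgeR). H13 and Blcap differed by 0.11 and 0.10 on the log2 scale.

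The members with the lowest p after Mkrn3 did not pass the correction. Mirg, a maternally expressed host RNA of microRNAs in the Dlk1-Dio3 cluster, was at 8.12, 9.55 and 9.89 CPM in the Trim28-KO cortex and at 6.60, 5.92 and 6.97 CPM in the controls (0.49 ± 0.14, adjusted p = 0.18, edgeR). Kcnk9, a maternally expressed potassium channel gene, was at 166, 155 and 138 CPM against 123, 137 and 125 CPM (0.25 ± 0.096, adjusted p = 0.376, edgeR). The lowest Trim28-KO value and the highest control value of Kcnk9 were close, at 137.9 and 137.0 CPM. As labelled in the flox nuclei, Kcnq1ot1, the paternally expressed long RNA that silences its neighbours, was at 112, 157, 152 and 150 CPM in the libraries labelled Trim28-KO and at 172, 182, 148 and 242 CPM in those labelled control (-0.38 ± 0.16, adjusted p = 0.971, edgeR), so the groups overlapped. Meg3 was at 4416, 4076, 3623 and 3831 CPM against 5517, 4361, 5371 and 3992 CPM (-0.27 ± 0.13, adjusted p = 0.971, edgeR), and these groups overlapped too. The unique counts hold a small part of the Meg3 reads, and with TEtranscripts the value was -0.049 ± 0.11 (adjusted p = 0.978, edgeR). In the NPCs Trappc9, a maternally biased gene of vesicle trafficking, was at 18.3, 13.1, 13.7, 15.1, 15.3 and 15.0 CPM against 22.4 and 17.6 CPM (-0.41 ± 0.18, adjusted p = 1.0, edgeR). Ddc, the gene of aromatic amino acid decarboxylase, was at 1.34, 1.06, 0.521, 1.90, 0.918 and 1.06 CPM against 0.537 and 0.646 CPM (0.93 ± 0.48, adjusted p = 1.0, edgeR). Both pairs of groups overlapped.

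In the CRISPR lines a single control per line gives no spread of its own. It is assumed to vary like the Trim28-KO animals, which differ in their guides. There 0 of 36 members tested were called in the Cas9-GFP nuclei (0.0% of all genes) and 0 of 36 in the Stop-Cas9-GFP nuclei (0.0% of all genes). An unadjusted p under 0.05 was reached by 5 members in the Cas9-GFP nuclei, where 8.21% of all genes reached it, and by 6 in the Stop-Cas9-GFP nuclei, where 2.44% did. With both lines in 1 fit 0 of 37 members were called (0.0146% of all genes), and 1 had an unadjusted p under 0.05 (5.89% of all genes). That member was Kcnk9. It had 111, 95.4, 60.6 and 152 CPM in the Trim28-KO animals of the Cas9-GFP line and 52.3 CPM in the control, and 129, 148, 133 and 93.9 CPM against 66.5 CPM in the Stop-Cas9-GFP line. All 8 Trim28-KO animals lay above the control of their line (0.96 ± 0.22, adjusted p = 0.26, edgeR). It was called by DESeq2 (adjusted p = 0.0264), by edgeR without the filter on low counts (adjusted p = 3.56e-06) and by edgeR without Cas9-GFP Trim28-KO animal 3 (adjusted p = 0.0376). That animal had received g3, g4 and g13 together. Slc17a7, Neurod6 and Tbr1, markers of excitatory neurons of the cortex, were summed as a gauge of such neurons in the sorted nuclei. Their sum was at 14.7, 84.9998, 42.9 and 158 CPM in the Trim28-KO animals and at 20.7 CPM in the control of the Cas9-GFP line, and at 51.8, 101.6, 17.9 and 50.1 CPM against 11.1 CPM in the Stop-Cas9-GFP line, with a median log2 fold change of 1.87 and 2.26 and none called. In this sum 7 of 8 Trim28-KO animals lay above the control of their line. In the flox nuclei the sum was at 9.61 to 258 CPM in the libraries labelled Trim28-KO and at 6.56 to 98.4 CPM in those labelled control. The part of these neurons in the value of Kcnk9 was not tested. In the single nuclei Kcnk9 was highest in excitatory neurons, at 7.23 to 11.1 UMI CPM (CPM from UMIs summed over the nuclei of an animal, without TMM) over the 4 animals, and at 1.13 to 4.64 in inhibitory neurons. It was not among the 12 members with every animal of 1 cell type above every animal of any other. Snrpn was next by p after Mkrn3, at 31.0, 34.8, 19.8 and 34.6 CPM against 45.3 CPM and at 35.8, 22.8, 24.4 and 30.4 CPM against 32.1 CPM (-0.40 ± 0.21, adjusted p = 0.866, edgeR), with 1 Stop-Cas9-GFP Trim28-KO animal above its control.

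Control levels set the imprinted genes of progenitors apart from those of adult neurons. Per kilobase of exon, the leading members in NPC controls were Nnat, a small membrane protein gene, at 139 CPM per kb, Mest at 130 and Peg10 at 80.5, all paternally expressed. In the control nuclei of all 3 adult neuron experiments Meg3, the maternally expressed long RNA of the Dlk1-Dio3 cluster, led with 266 to 296 CPM per kb. In the control cortex Snrpn at 206 and Nap1l5 at 172 CPM per kb led. Peg12 was at 36.0 and 69.6 CPM in NPC controls and at 0 reads in every library of sorted nuclei. H19, the maternal growth-restraining RNA, was at 2.79 and 11.6 CPM in NPC controls, at most 0.155 CPM in the cortex and at 0 reads in sorted nuclei. In the other direction Rasgrf1, a paternally expressed exchange factor of neuronal signalling, was at 0.547 and 0.805 CPM in NPC controls and at 363 to 532 CPM in the flox libraries labelled control. These levels are a description across experiments that differ in cell type, in nuclear or whole RNA and in TMM scaling. Phlda2 was at 0 reads in the controls of all 5 experiments.

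**Figure D3:**
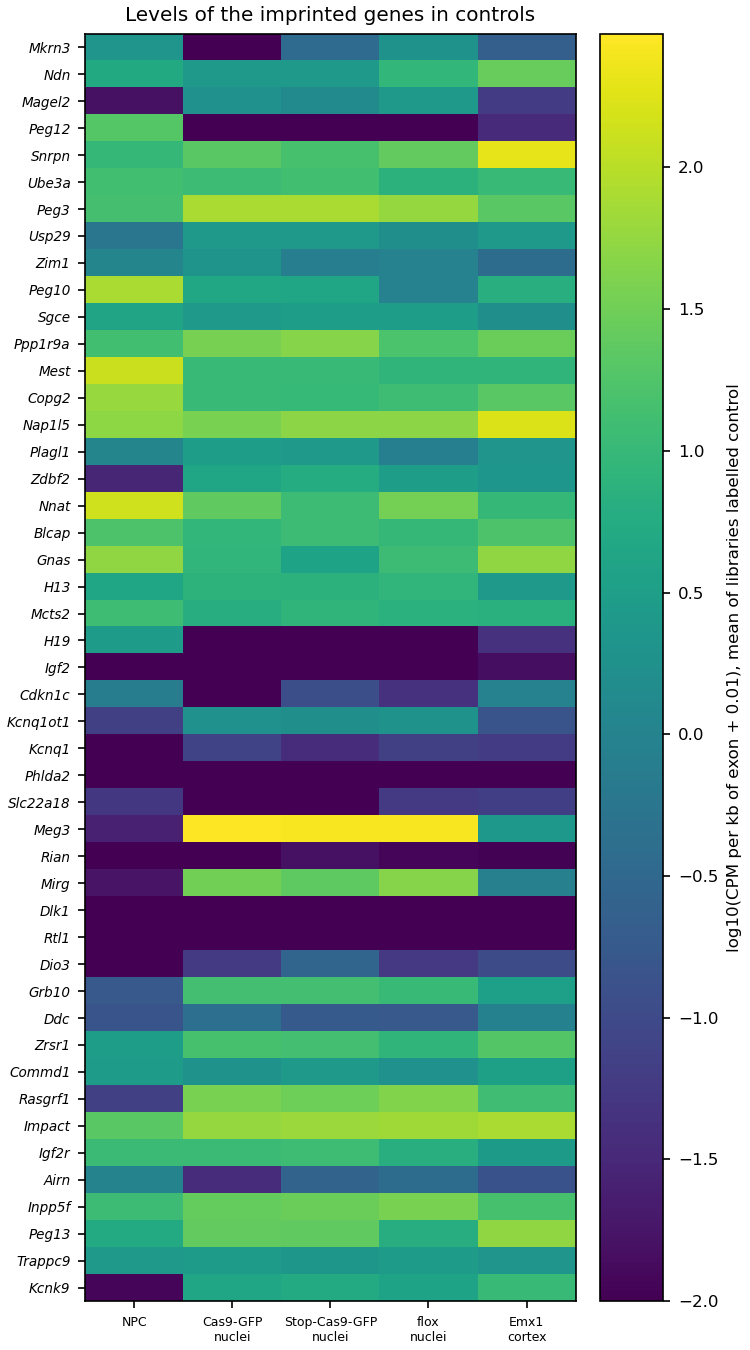
Mean level of each of the 47 imprinted genes in the libraries labelled control of the 5 bulk experiments, as log10 of CPM per kb of exon plus 0.01, in the order of the clusters. Meg3 leads in sorted neuronal nuclei, Snrpn in cortex and Nnat in NPCs, and Dlk1, Rtl1, Rian, Meg3 and Igf2 lost most of their reads in the unique counting shown here.

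The Dlk1-Dio3 cluster, Igf2 and 4 further members depended on how reads were counted. Uniquely mapped reads gave Dlk1, the gene of a paternally expressed transmembrane ligand, 0 reads in all 32 libraries, whereas TEtranscripts, which shares reads among their matches, gave 1401. Rtl1, a paternally expressed gene derived from a retrotransposon, had 0 and 1093, and Rian, a maternally expressed host RNA of small nucleolar RNAs, had 11 and 300751. Meg3 had 1290786 and 6224375, while Mirg had 73627 and 78652 and Mkrn3 had 1720 and 1745. Of the exonic bases of Meg3 1.5%, of Dlk1 0%, of Rtl1 1.26% and of Rian 3.42% are shared with another gene on their strand, and the cause of the loss was not tested. For Igf2, with 5 and 2184 reads, 62.8% of the exonic bases are shared with Gm49394 on its strand. The shift went the other way for Ube3a (121760 and 75782 reads), Copg2 (62825 and 37275), Commd1 (7647 and 4486) and Kcnq1 (120 and 37). Ube3a was at 142 to 162 CPM in the flox libraries labelled control by unique reads and at 17.1 to 27.9 CPM by TEtranscripts, and 27.3% of its exonic bases lie opposite other genes. A zero or low value of Dlk1, Rtl1, Rian, Meg3 or Igf2 in the unique counts is therefore no measure of their expression.

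**Figure D4:**
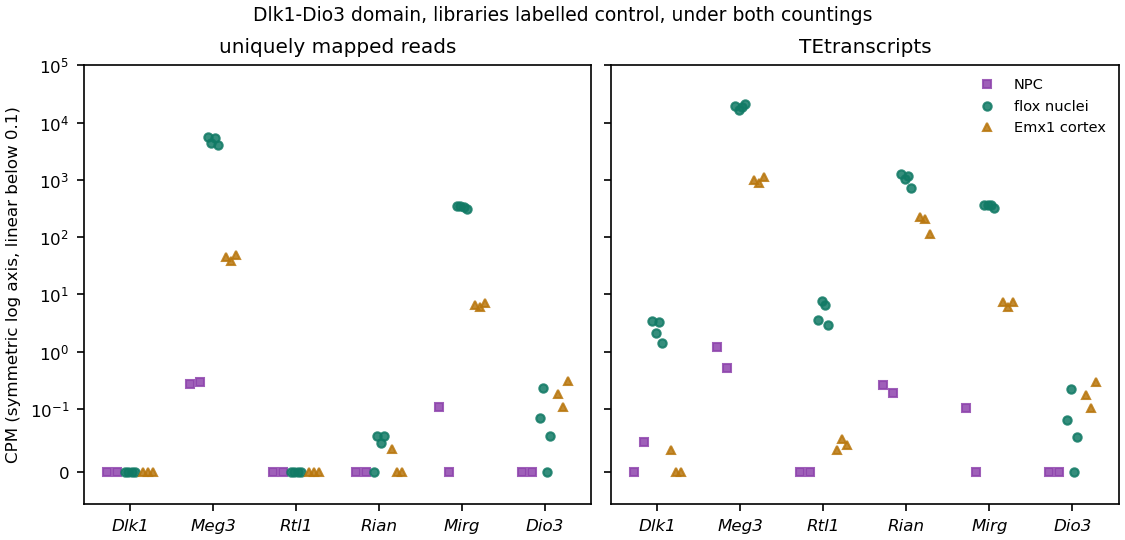
The 6 genes of the Dlk1-Dio3 cluster in the libraries labelled control of NPCs (squares), flox nuclei (circles) and Emx1 cortex (triangles), in CPM from uniquely mapped reads (left) and from TEtranscripts (right) on a log axis that is linear below 0.1. Dlk1 and Rtl1 have values only on the right, and Mirg and Dio3 lie at similar levels on both sides.

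In the TEtranscripts counts no member of the cluster was called. Meg3 was at 16429 to 20669 CPM in the flox libraries labelled control, at 889 to 1116 CPM in the control cortex and at 0.524 and 1.18 CPM in the NPC controls. In the Trim28-KO cortex it was at 1386, 1090 and 1111 CPM (0.27 ± 0.13, adjusted p = 0.578, edgeR), overlapping the controls. Rian was at 133, 214 and 100 CPM in the Trim28-KO cortex and at 221, 208 and 111 CPM in its controls. Rtl1 was at 2.32 to 4.15 CPM in the flox libraries labelled Trim28-KO and at 2.94 to 7.63 CPM in those labelled control (-0.79 ± 0.33, adjusted p = 0.95, edgeR). Igf2, a paternally expressed growth factor made in the adult brain mainly by meninges and choroid plexus, was at 6.51, 15.2 and 9.45 CPM in the Trim28-KO cortex and at 25.7, 21.8 and 16.5 CPM in its controls. The groups did not overlap, but the change was not called (-1.03 ± 0.26, adjusted p = 0.104, edgeR). Markers of meningeal fibroblasts moved with it. All 9 listed markers were tested, and their summed level was 12.4 to 19.9 CPM in the Trim28-KO cortex and 26.9 to 33.0 CPM in the controls. Slc47a1, Slc22a6 and Col1a2 were called lower, with 0 called higher, where 1.33% of all genes were called in either direction. Summed markers of oligodendrocytes (1692 to 1901 against 2110 to 2278 CPM) and of endothelium (96.9 to 119 against 125 to 141 CPM) were also lower in every Trim28-KO animal. So were those of inhibitory neurons (531 to 587 against 599 to 658 CPM). Those of dividing progenitors were higher in every Trim28-KO animal (63.5 to 76.3 against 58.5 to 61.2 CPM). In these lists 0 genes were called. Slc47a1 was at 0.0568, 0.413 and 0.317 CPM against 3.01, 2.17 and 1.24 CPM. Summed markers of choroid plexus overlapped, at 1.36 to 8.63 CPM in the Trim28-KO cortex and 2.40 to 14.4 CPM in the controls. Fewer meningeal cells and less RNA per cell cannot be told apart in bulk tissue, and the part of the meninges in the Igf2 values was not tested. Among the single nuclei 35 and 34 of the Trim28-KO animals and 26 and 35 of the control animals were meningeal fibroblast-like. In the single nuclei Igf2 was highest in this small meningeal fibroblast-like cluster, at 43.9 to 153 UMI CPM. Its nuclei had a median of 0.341 of the median UMIs of their animal, so these values rest on few UMIs.

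Single nuclei of the Emx1 cortex resolved the imprinted genes by cell type. Clusters were named from marker genes, 11 of 14 carry a name, and a cell type below always means the nuclei that are like it by these markers. The named classes were excitatory neuron-like (7727 nuclei), inhibitory neuron-like (1683), oligodendrocyte-like (1308), astrocyte-like (1185), microglia-like (691), oligodendrocyte progenitor-like (453) and meningeal fibroblast-like (130). Of the 47 members 45 are in this table, 43 had a UMI and 33 had at least 100 UMIs. Snrpn, Ube3a, Peg3, Usp29 and Mirg were highest in inhibitory neurons, with every animal above every animal of any other class. Snrpn was there at 78.4 to 110 UMI CPM and in excitatory neurons at 8.74 to 16.9. Peg3, which encodes a zinc finger protein, was at 354 to 491 in inhibitory and 168 to 210 in excitatory neurons. Airn, Gnas, Igf2r and Grb10 were highest in the meningeal fibroblast-like cluster, with Airn at 305 to 618 there and 74.5 to 86.5 in inhibitory neurons. Inpp5f, a phosphatase gene, was highest in oligodendrocytes at 244 to 284. Copg2 and Ppp1r9a were highest in microglia, Copg2 at 193 to 234 UMI CPM. Meg3 was a neuronal RNA, at 9737 to 11804 in inhibitory and 7766 to 10549 in excitatory neurons, and at 322 to 708 in astrocytes and 663 to 1411 in microglia. Free RNA was not separated from the values of glia. The 5 members highest in inhibitory neurons include paternally (Snrpn, Peg3, Usp29) and maternally (Ube3a, Mirg) expressed genes. How many of all genes peak in a class in this way was not counted, so these levels only describe the members.

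In the sums over all nuclei of an animal, 2 of 35 members tested were called at an adjusted p under 0.05, beside 4.16% of all 17400 genes, and 12 had an unadjusted p under 0.05 (24.8% of all genes). Nap1l5, a paternally expressed nucleosome assembly protein gene without introns at chr6:58905233-58907076, was at 126 and 127 UMI CPM in the Trim28-KO animals and at 83.0 and 60.5 in the controls (0.81 ± 0.14, adjusted p = 0.0293, edgeR). Snrpn was at 17.9 and 19.2 against 28.7 and 27.2 (-0.61 ± 0.12, adjusted p = 0.0394, edgeR). Rtl1 was at 16.4 and 15.4 against 10.4 and 6.67 (0.88 ± 0.20, adjusted p = 0.0541, edgeR) and was not called. In each of the 3 the groups did not overlap. Without the filter on low counts neither gene was called (adjusted p = 0.0731 for Nap1l5 and 0.0768 for Snrpn), and Snrpn was not called without Trim28-KO animal 60 or 73 (adjusted p = 0.36 and 0.235). In the bulk cortex Nap1l5 was at 343, 297 and 306 CPM in the Trim28-KO and at 318, 286 and 344 CPM in the control animals (-0.0044 ± 0.098, adjusted p = 1.0, edgeR), and the groups of Snrpn overlapped too. The nuclei and the tissue were not compared in 1 test, and they come from animals with the same numbers.

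Within excitatory neurons the same members, Nap1l5 and Snrpn, were the 2 called of 33 tested, where 9.75% of all 16090 genes were called, and 14 had an unadjusted p under 0.05 (28.4% of all genes). Nap1l5 was at 116.9 and 119 UMI CPM in the Trim28-KO animals and at 74.9 and 57.5 in the controls (0.79 ± 0.13, adjusted p = 0.0134, edgeR). Snrpn was at 8.74 and 9.83 against 16.9 and 14.4 (-0.80 ± 0.15, adjusted p = 0.0216, edgeR), and it was not called without Trim28-KO animal 60 (adjusted p = 0.147) or 73 (adjusted p = 0.0559). Without the filter neither was called (adjusted p = 0.076 and 0.079). Copg2, a maternally biased coatomer gene, was at 100.0 and 100.1 against 137 and 119 (-0.40 ± 0.10, adjusted p = 0.0504, edgeR). The animals filled the excitatory clusters unequally. The cluster led by Syt6 and Foxp2 held 163 and 77 nuclei of the Trim28-KO and 269 and 273 of the control animals, and the cluster led by Otof held 888 and 1077 against 532 and 569. Inside the cluster led by Otof Nap1l5 was at 114 and 118 against 62.2 and 51.8, and Snrpn at 10.9 and 11.1 against 21.3 and 19.4, both called (log2 fold changes 0.96 and -0.95, adjusted p = 0.00474 and 0.0128, edgeR). Over all genes 1141 were called in that cluster. In the largest cluster, of 997 and 987 against 808 and 861 nuclei, Nap1l5 was called at 0.69 (adjusted p = 0.0199, edgeR) and Snrpn was not (-0.51, adjusted p = 0.146, edgeR). Over all genes 1174 were called there.

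In inhibitory neurons 0 of 31 members tested were called (0.0% of all genes), 11 of them having an unadjusted p under 0.05, where 14.5% of all genes did. Nap1l5 was at 213 and 205 UMI CPM in the Trim28-KO animals and at 131 and 92.4 in the controls (0.89 ± 0.15, adjusted p = 0.0911, edgeR), the lowest p of the members, and was called by DESeq2 (adjusted p = 0.00313) and by edgeR without control animal 64 or 65 or Trim28-KO animal 73. Rtl1 was at 24.3 and 24.0 against 15.8 and 8.18 (1.00 ± 0.27, adjusted p = 0.183, edgeR), and Impact at 153 and 153 against 119 and 105 (0.44 ± 0.12, adjusted p = 0.192, edgeR). Snrpn was at 81.0 and 78.4 against 103 and 110 (-0.44 ± 0.13, adjusted p = 0.195, edgeR). Nap1l5 and Snrpn had the directions seen in excitatory neurons. Whether the effects differ between the classes was not tested.

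In oligodendrocytes 1 of 21 members tested was called, where 3.03% of all 8041 genes were called, and 3 had an unadjusted p under 0.05 (12.9% of all genes). Plagl1, a paternally expressed zinc finger gene of the imprinted gene network, was at 17.3 and 16.1 UMI CPM in the Trim28-KO animals and at 44.5 and 46.2 in the controls (-1.45 ± 0.39, adjusted p = 0.0435, edgeR). These values rest on 9 and 7 UMIs against 66 and 41 UMIs, from 233 and 163 against 569 and 343 nuclei, and Plagl1 was not called by DESeq2 (adjusted p = 0.675) or without Trim28-KO animal 60 (adjusted p = 0.256) or 73 (adjusted p = 0.324). In the bulk cortex Plagl1 was at 14.9, 14.3 and 12.7 CPM against 15.0, 14.7 and 20.6 CPM, and the groups overlapped. Meg3 in oligodendrocytes was at 657 and 465 against 677 and 1067 (-0.64 ± 0.19, adjusted p = 0.0777, edgeR), and Kcnq1ot1 at 181 and 127 against 211 and 264 (-0.63 ± 0.21, adjusted p = 0.128, edgeR). Neither was called.

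The other classes gave 0 calls among 22 members tested in astrocytes (2.09% of all genes), 22 in oligodendrocyte progenitors (0.299%), 13 in microglia (0.0%) and 11 in meningeal fibroblasts (0.0%). An unadjusted p under 0.05 was reached by 8, 1, 1 and 0 of these members, beside 14.5%, 9.11%, 7.0% and 2.91% of all genes, and DESeq2 called 0 in each class. In astrocytes the lowest p belonged to Meg3, at 406 and 322 UMI CPM against 444 and 708 (-0.64 ± 0.19, adjusted p = 0.131, edgeR), Peg3, at 54.6 and 63.3 against 84.7 and 99.4 (-0.63 ± 0.19, adjusted p = 0.145, edgeR), and the potassium channel gene Kcnq1, at 70.1 and 67.5 against 46.5 and 33.6 (0.74 ± 0.23, adjusted p = 0.147, edgeR). In oligodendrocyte progenitors Usp29, which is transcribed beside Peg3, was at 128 and 89.1 against 50.1 and 71.3 (0.85 ± 0.30, adjusted p = 0.37, edgeR). In microglia Meg3 was at 862 and 663 against 938 and 1411 (-0.64 ± 0.21, adjusted p = 0.471, edgeR). In meningeal fibroblasts Nnat varied most, at 148 and 844 against 305 and 1435 (-0.83 ± 0.88, adjusted p = 1.0, edgeR). The remaining members with the lowest p in these classes, Kcnq1 and Kcnq1ot1 in progenitors, Gnas and H13 in microglia and Grb10 and Kcnq1ot1 in meningeal fibroblasts, had adjusted p between 0.603 and 1.0.

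**Figure D5:**
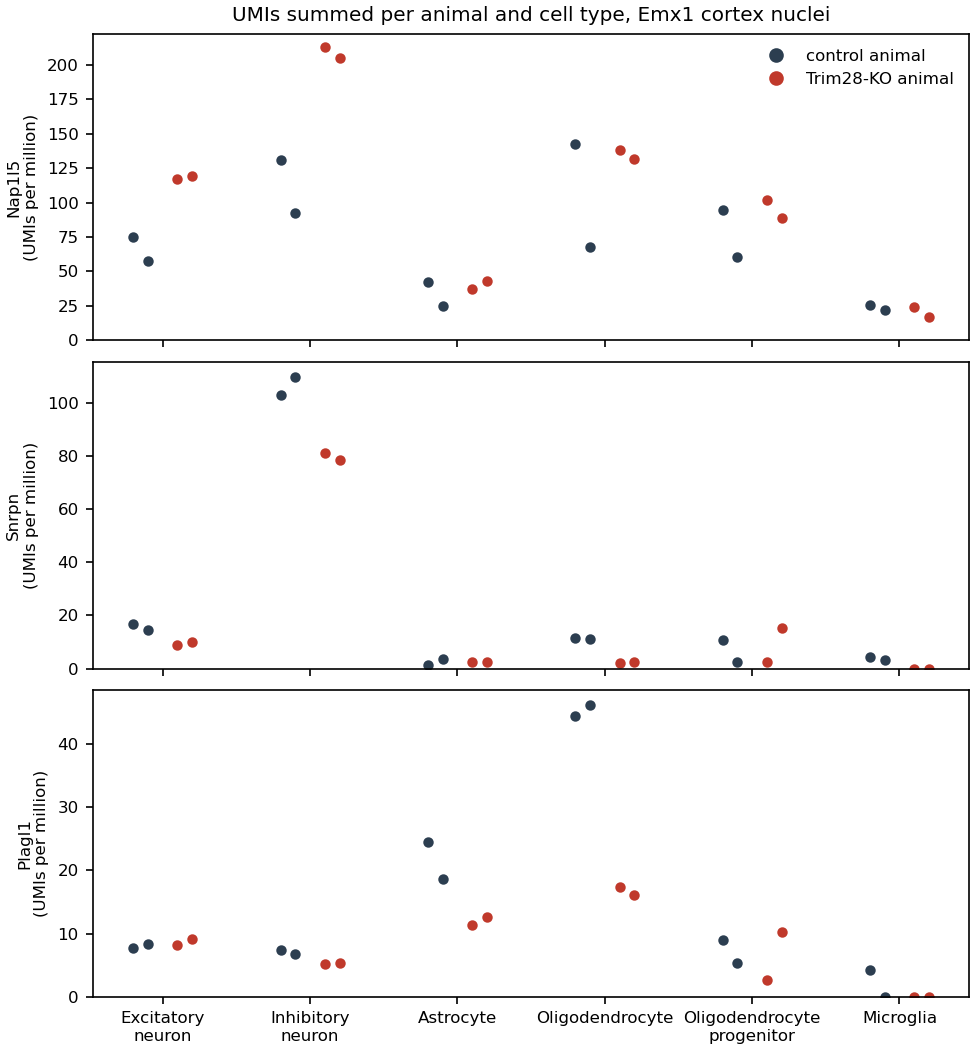
UMI CPM of Nap1l5, Snrpn and Plagl1, summed per animal and cell class, in the 2 control (dark blue) and 2 Trim28-KO (red) animals of the Emx1 cross. Nap1l5 is higher in both Trim28-KO animals in excitatory and inhibitory neurons, Snrpn is lower in both, and Plagl1 is lower in oligodendrocytes.

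TRIM28 is best known as a silencer of transposable elements (TEs), so the distance from each member to TE copies that rose was measured. In the NPCs 193 of 35091 individual TE copies tested were called higher and in the Emx1 cortex 347 of 13997. None of the 47 imprinted genes, of which 35 were tested in each experiment, lay within 100 kb of such a copy (0 of 47 at 10, 50 and 100 kb). Among all genes tested the share within 50 kb was 0.941% in the NPCs and 2.62% in the cortex. Within 100 kb it was 1.56% and 4.06%. Shares this low would place few members near a copy, so the 0 is not read as a difference from all genes. The called copy nearest to Mkrn3 was 28318 kb away in the NPCs and 16474 kb away in the cortex. In the NPCs 7 TE copies within 50 kb of Mkrn3 were tested, none called, among them internal parts of MERVL_2A elements. In the cortex no copy within 50 kb of Mkrn3 passed the filter on low counts.

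Of 30 listed factors, which include Zfp57, Zfp445, the histone methyltransferase gene Setdb1 and the DNA methyltransferase gene Dnmt1, 24 to 26 were tested per experiment. Trim28 itself was the only 1 called in these fits, in the NPCs, the flox nuclei and the Emx1 cortex (0.194%, 0.0409% and 1.33% of all genes), and in none of the CRISPR lines. Among 60 further genes of imprinted domains, 56 were in the table and 36 to 44 were tested per experiment. In the Emx1 cortex 1 was called higher and 2 lower of 38 tested, where 1.33% of all genes were called in either direction. In the other 4 experiments 0 were called. Klf14, a maternally expressed transcription factor gene without introns on chromosome 6, was at 12.4, 13.5 and 13.1 CPM in the Trim28-KO cortex and at 1.45, 1.63 and 1.91 CPM in the controls (2.97 ± 0.16, adjusted p = 1.12e-06, edgeR). Every Trim28-KO animal lay far above every control. Klf14 in the flox nuclei was at 0 to 0.237 CPM in the libraries labelled Trim28-KO and at 0.0574 to 1.30 CPM in those labelled control, on at most 23 reads. In the NPCs it was at 0.0574 to 0.574 CPM against 0 and 0.0537 CPM. Htr2a, which encodes a serotonin receptor, was at 30.8, 32.6 and 31.9 CPM in the Trim28-KO cortex and at 47.9, 55.3 and 54.0 CPM in the controls (-0.72 ± 0.093, adjusted p = 0.00142, edgeR). Phactr2, which lies beside Plagl1, was at 12.4, 13.8 and 13.5 CPM against 20.4, 22.3 and 21.8 CPM (-0.70 ± 0.11, adjusted p = 0.00614, edgeR).

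Of the genes called in the flox nuclei and in the Emx1 cortex, 7 and 216, Mkrn3 was 1 of 3 called in both, with Trim28 and Nup62cl (42.9% of the first list and 1.39% of the second). All 3 had opposite signs as labelled.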

How the data were processed

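The members and gene lists were chosen with earlier results of these data known. For bulk RNA the authors aligned stranded poly-A reads with STAR 2.6.0 to GRCm38.p6, kept uniquely mapped reads and deposited whole read counts per gene and per individual TE copy from featureCounts (Subread 1.6.3), with reverse strand used and reads over several genes not counted. They also deposited estimated counts per gene from TEtranscripts, which shares multi-mapped reads. All of these were whole numbers. The UMI counts of nuclei were deposited as Cell Ranger 3.0 gave them, against a reference of unspliced transcripts of mm10. A further 6 columns of the TE copies matched no sample and were not used. CUT&RUN was not used here.

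Each bulk experiment was fitted alone with edgeR 4.0.16 in R 4.3.3 (filterByExpr, TMM, quasi-likelihood test). CPM use total reads on genes times the TMM factor. Alternatives were RLE factors, no filter, DESeq2 1.42.0, the TEtranscripts counts and leaving out each sample. Exact permutation tests double the smaller tail. Nuclei whose log10 gene number lay within 3 MADs of the animal's median were clustered with Seurat 5.3.0 (2000 variable genes, 20 components, resolution 0.1), and UMIs were summed per animal for classes with at least 20 nuclei in every animal. No doublet caller was run. Pairs of libraries shared 0 to 20 barcodes. Labels name separate cultures or animals. A UMI of Trim28 can come from outside the deleted part, so the nuclei (262 and 252 UMIs in Trim28-KO, 277 and 246 in control animals) do not check the labels.

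The NPC cultures carry numbers in 2 series, each with 1 control and 1 culture per guide. Deviations of each Trim28-KO culture correlated with the control of its own series at r between 0.419 and 0.699, so the series were treated as pairs and entered as a replicate block in a further fit. With 2-fold changes simulated in 200 genes, the fit recovered 49.5% in the NPCs, 8.5% in the Cas9-GFP nuclei, 7% in the Stop-Cas9-GFP nuclei and 55% with both lines. It recovered 76.5% in the flox nuclei, 38.5% in the Emx1 cortex, 10.5% in all nuclei and 5% for the difference between Emx1 cortex and flox nuclei. Of the genes called in the simulation, 12.5% were false in all nuclei and 0% to 5.56% in the other fits.

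Full values are given for members called in a main fit and for the 3 of lowest p in each comparison with at least 2 samples a group, and the others by range. Of the other lists only called genes are named. Markers of other cell types were called in the Emx1 cortex for meningeal fibroblasts alone, and none of the lists of choroid plexus, endothelium, striatal neurons, dividing progenitors, inhibitory neurons, astrocytes, oligodendrocytes and microglia had a call in any bulk experiment. The list of excitatory neurons is given by 3 of its genes only, and the rest of it is not reported here.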

Additional observations from a re-analysis of the deposited data

Results flagged for a closer look

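Mkrn3 differed between experiments. Its log2 fold change was 8.82 higher in the Emx1 cortex than in the flox nuclei as labelled and 4.00 higher than in the NPCs, both by a test of the difference itself. In the flox nuclei the libraries labelled Trim28-KO have the higher Trim28, so the direction of its labels is in doubt. With the sign of the flox effect turned the first difference would be -1.11, which was not tested. Kcnq1ot1 was at 111.9 CPM in 1 flox library labelled Trim28-KO, below the other 3 of its group at 149.7 to 156.5 CPM. Chance marks about 1 in 20 groups in this way, and 20 groups were examined.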

How the results depend on the processing

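In the Emx1 cortex, the flox nuclei and both differences Mkrn3 kept its call in every alternative run, between 3.76 and 4.03 in the Emx1 cortex, -5.38 and -4.68 in the flox nuclei as labelled, 8.51 and 9.20 for their difference and 3.89 and 4.15 for the difference from NPCs with each library left out. The replicate block raised the genes called in NPCs from 32 to 136 of 16469 (0.826%) and called 0 members. It changed no call of a member, and an unadjusted p under 0.05 was then reached by 4 members (1 without it). Without the filter 1 member was called in the Cas9-GFP nuclei, 1 in both CRISPR lines, 0 in all nuclei, 1 in astrocytes, 0 in excitatory neurons, 1 in microglia and 2 in oligodendrocytes. DESeq2 called 1 in both CRISPR lines, 5 in all nuclei, 5 in excitatory neurons, 1 in inhibitory neurons and 0 in oligodendrocytes, and moved the median of all genes to 0.195 in the Cas9-GFP nuclei and 0.127 in both lines. With each sample left out, members called ranged from 0 to 1 in both CRISPR lines, 1 to 17 in all nuclei, 0 to 3 in astrocytes, 1 to 16 in excitatory neurons, 0 to 15 in inhibitory neurons, 0 to 1 in microglia, 0 to 1 in oligodendrocyte progenitors and 0 to 4 in oligodendrocytes, with the most called without control animal 64 in all nuclei, astrocytes, excitatory and inhibitory neurons, progenitors and oligodendrocytes, and in microglia without Trim28-KO animal 60. The fits of excitatory clusters alone, added after seeing the data, called 6 members in cluster 1, 0 in cluster 5 and 0 in cluster 10. Over all genes these fits called 1141, 184 and 56. In cluster 10 Nap1l5 was at -0.00049. Nnat in meningeal fibroblasts ranged from -2.51 to 0.62 and turned positive without control animal 65. The hexamer on the gene's own strand was in 3 windows. Over all genes, DESeq2 called 146 in NPCs, 25 and 1 in the Cas9-GFP and Stop-Cas9-GFP nuclei (0 and 0 by edgeR), 18 with both lines (3), 37 in the flox nuclei (7), 156 and 78 for the differences (60 and 21), 1506 in all nuclei (724), 110 in astrocytes (215), 16 in inhibitory neurons (0), 1 in microglia (0), 7 in progenitors (20) and 88 in oligodendrocytes (244). Without the filter 131 were called in the Cas9-GFP nuclei, 18 in the Stop-Cas9-GFP nuclei, 74 with both lines, 19 in the flox nuclei, 546 in the Emx1 cortex (216), 90 in all nuclei, 521 in astrocytes, 72 in excitatory neurons (1568), 10 in meningeal fibroblasts (0), 87 in microglia and 68 in progenitors. TEtranscripts gave 4, 1 and 11 in the Cas9-GFP, Stop-Cas9-GFP and flox nuclei. Clusters 0, 1, 5 and 10 alone gave 1174, 1141, 184 and 56. With each sample left out the counts ranged from 2 to 58 in NPCs, 0 to 7 in the Cas9-GFP nuclei and in both lines, 104 to 344 in the Emx1 cortex, 30 to 109 and 4 to 58 for the differences, 371 to 5233 in all nuclei, 67 to 981 in astrocytes, 660 to 4404 in excitatory and 18 to 2907 in inhibitory neurons, 0 to 29 in meningeal fibroblasts, 0 to 64 in microglia, 19 to 150 in progenitors and 94 to 683 in oligodendrocytes. The calls in nuclei rest on 2 animals per group. The causes of these moves were not tested.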
